A study of Mus musculus with 6 samples.

Results

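The 26S proteasome subunits and the E2 ubiquitin-conjugating enzymes were followed in the livers of male C57BL/6J mice on the CFD diet and on the control diet. Members were taken by gene name from the scanner files: every probe, control spots left out, whose name began with Psma, Psmb, Psmc, Psmd, Psme or Psmf and a digit, except the immunosubunits Psmb8, Psmb9 and Psmb10, or with Ube2. This gave 72 of the 27670 named genes on the array, 41 proteasome names and 31 E2 names, measured by 144 probes. The CFD diet group (3 samples) had received a diet without choline or folic acid and with 0.17% methionine, and the control group (3 samples) the same iron-supplemented, amino acid-defined base in which methionine was 0.4%, folic acid 2 mg/kg and choline bitartrate 0.3%. All mice were 8 weeks old when the diets began, ate them for 12 weeks and were 20 weeks old at sampling. Total RNA was labelled with Cy3 and hybridised to Agilent whole-genome mouse arrays, 1 sample to an array. Replicates are numbered within each group, and whether each is a different mouse is not said in the labels. The p-values thus reflect only how far these samples spread, part of which may be technical.

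Proteins are marked for destruction by ubiquitin, a small protein that an E1 enzyme activates, an E2 enzyme carries and an E3 ligase helps to attach to the substrate. The 26S proteasome then takes the marked protein apart. Its 20S core is a barrel of alpha rings, which gate the entrance, and beta rings, which hold the proteolytic sites, and its 19S cap holds ATPases, which unfold the substrate, and non-ATPase subunits, which bind and cut off the ubiquitin. Other caps, the activators, can take the place of the 19S cap. When proteasome activity is short, the transcription factor NRF1 (Nfe2l1) raises the subunit genes together through antioxidant response elements in their promoters, and E2 genes of mitosis such as Ube2c are switched on in dividing cells through CCAAT boxes and cell cycle homology regions.

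Promoter sequences are given for 3 members that rose, Ube2c, Ube2t and Psmc3ip, and for 2 catalytic core subunits whose promoters hold the antioxidant response element, Psmb5 and Psmb6. They are the 250 bases before the start of transcription, read 5′ to 3′ on the strand of the gene, from RefSeq (GRCm38.p6). Capitals mark CCAAT and TTTGAA in the first 3 and TGACNNNGC in the others, on either strand. The windows lie at chr2:164769679-164769928 (plus strand, Ube2c), chr1:134962315-134962564 (plus strand, Ube2t), chr11:101095436-101095685 (minus strand, Psmc3ip), chr14:54617996-54618245 (minus strand, Psmb5) and chr11:70525107-70525356 (plus strand, Psmb6).
Ube2c: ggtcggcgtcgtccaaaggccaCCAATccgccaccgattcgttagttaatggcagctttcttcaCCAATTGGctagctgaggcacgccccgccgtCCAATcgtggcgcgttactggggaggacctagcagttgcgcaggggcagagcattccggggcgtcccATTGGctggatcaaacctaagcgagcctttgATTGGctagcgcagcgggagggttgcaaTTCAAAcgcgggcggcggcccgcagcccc
Ube2t: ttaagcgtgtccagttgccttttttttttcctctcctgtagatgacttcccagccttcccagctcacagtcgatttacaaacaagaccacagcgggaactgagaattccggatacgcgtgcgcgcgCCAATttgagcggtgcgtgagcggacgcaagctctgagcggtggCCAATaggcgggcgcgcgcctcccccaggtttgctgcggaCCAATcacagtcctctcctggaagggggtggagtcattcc
Psmc3ip: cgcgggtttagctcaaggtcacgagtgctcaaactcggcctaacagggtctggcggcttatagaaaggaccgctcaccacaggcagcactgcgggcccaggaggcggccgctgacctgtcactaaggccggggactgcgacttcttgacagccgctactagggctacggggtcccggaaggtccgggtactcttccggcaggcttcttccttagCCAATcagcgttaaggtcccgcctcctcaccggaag
Psmb5: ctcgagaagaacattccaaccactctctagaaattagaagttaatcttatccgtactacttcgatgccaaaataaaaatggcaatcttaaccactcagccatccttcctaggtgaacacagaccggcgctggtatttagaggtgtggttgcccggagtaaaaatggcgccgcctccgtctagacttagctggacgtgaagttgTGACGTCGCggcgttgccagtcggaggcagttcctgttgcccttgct
Psmb6: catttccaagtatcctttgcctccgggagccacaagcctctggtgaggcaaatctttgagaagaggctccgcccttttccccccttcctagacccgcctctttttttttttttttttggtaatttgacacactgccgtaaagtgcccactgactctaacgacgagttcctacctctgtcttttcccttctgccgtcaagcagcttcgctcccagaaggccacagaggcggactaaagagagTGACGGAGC

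The table held a promoter for 34 of the 41 proteasome names and 24 of the 31 E2 names, 36 and 35 promoters in all. TGACNNNGC, the letters of the antioxidant response element, occurred in 5 of the 36 proteasome promoters (13.9%), those of Psmb5, Psmb6, Psmc6, Psmd12 and Psmd9, in 4 of the 35 E2 promoters (11.4%) and in 10.2% of 32851 promoters of the same length. CCAAT occurred in 13 proteasome promoters (36.1%), in 7 E2 promoters (20.0%) and in 33.8% of all promoters. The Ube2c promoter held 6 copies of CCAAT, a number that 19 of all promoters reached or passed (0.0578%), 2 of them overlapping as CCAATTGG. It also held TTTGAA once, 29 bases before the start. This run was found in 2 proteasome promoters (5.6%), in 3 E2 promoters (8.6%) and in 16.0% of all promoters. The Ube2t promoter held 3 copies of CCAAT, a number that 2.79% of all promoters reached or passed. The Psmc3ip promoter held 1 copy, and neither promoter held TTTGAA. Psmd10, called lower, and Ube2f, not called, also had 3 copies of CCAAT and 1 of TTTGAA before their starts. A run of letters is a description of the window and not a bound site.

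Of the 72 members, 71 were tested, since Ube2d1, a generalist E2, was well above background on only 2 arrays of each group. All 71 were well above background on all 6 arrays. Signals below are scaled to the array's 75th percentile, which is 1 on every array, and folds are on the log2 scale, CFD diet over control, with the standard error from limma. A gene was represented by its brightest tested probe and called at an adjusted p below 0.05 over 15909 genes. The arrays had 23585 to 29044 probes well above background in the CFD diet group and 21689 to 26270 in the control group. CFD diet array 2 stood nearer to the controls than its group did, with correlations over all genes of 0.948 to 0.951 with the control arrays, against 0.913 to 0.925 for CFD diet arrays 1 and 3. Each of the 3 slides held 1 array of each group, and the arrays of a slide share a replicate number and a scan. Hepatocyte markers were lower on CFD diet arrays 1 and 3 (sums of 6 genes 1080 and 1153) than on CFD diet array 2 (1868) and the controls (1758 to 2195).

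The proteasome names were mostly lower in the CFD diet livers, by small amounts. Of 41 tested, 2 were called higher, where 23.7% of all tested genes were, and 16 (39.0%) were called lower, where 27.4% of all tested genes were, and 23 were not called. The median log2 fold change was -0.37, against -0.11 over all tested genes, and 36 of the 41 lay below 0 (87.8%), against 56.2% of all tested genes. All 3 CFD diet values lay below all 3 control values for 24 names, against 34.6% of all tested genes, and above them for 2 names, against 28.3%. Proteasome probes are bright, and bright probes were lower in general. Of 4 equal bins of genes by mean signal, a division made after the data were seen, the brightest held 34 of the 41 names. In it 14 of the 34 (41.2%) were called lower, with a median of -0.38, against 38.4% of all genes in the bin, with a median of -0.29. Of the 34 names 91.2% lay below 0, against 71.0% of all genes in the bin, and 1 (2.9%) was called higher, against 10.6%. These livers were measured in bulk, so fewer cells of a type and less RNA per cell cannot be told apart.

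**Figure D1:**
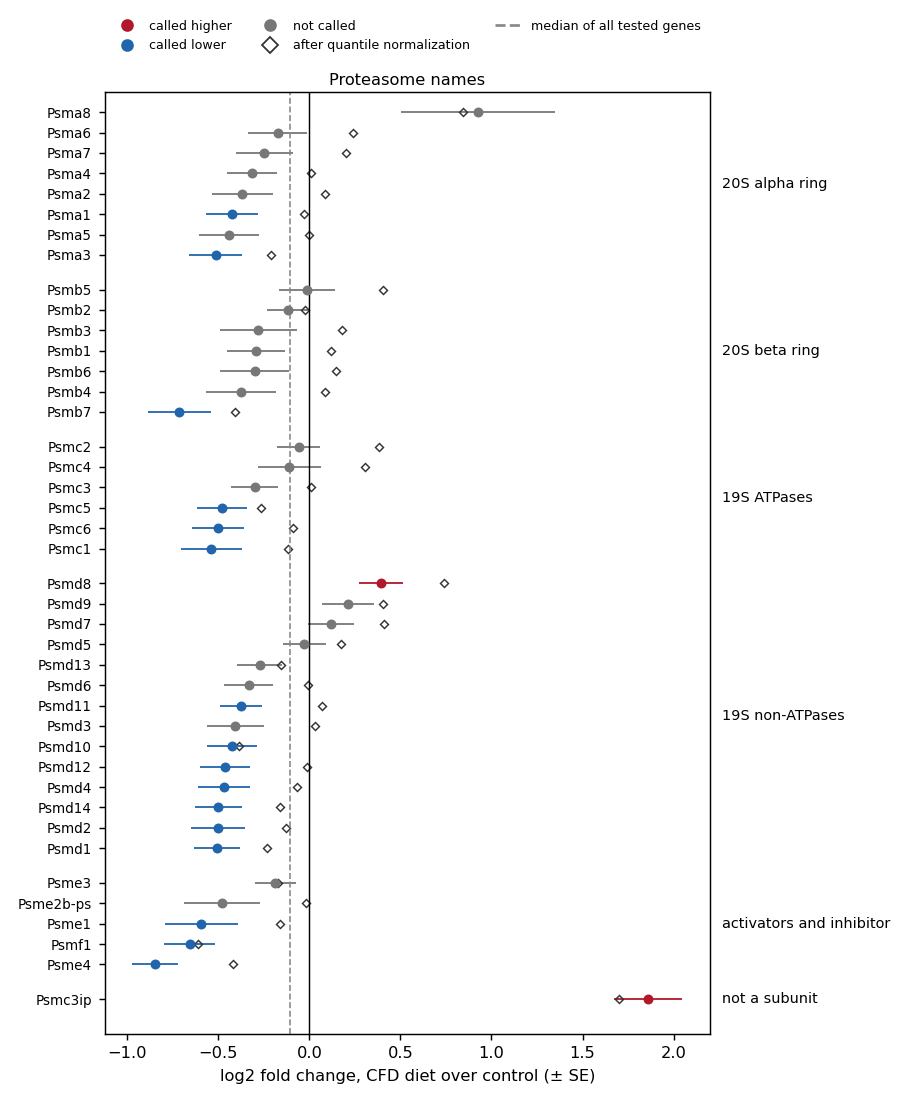
Log2 fold change, CFD diet over control, of the 41 proteasome names by role, from the brightest tested probe of each (bars, standard error from limma, 3 arrays a group). Red and blue points were called higher and lower, grey points were not called, open diamonds give the value after quantile normalization and the dashed line marks the median of all tested genes, -0.11. The filled points lie mostly left of 0, and the diamonds lie on both sides of it, with a median of -0.002.

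Both the size of this shift and whether it was seen depended on the scaling, and its size also on single arrays. After quantile normalization the median of the 41 names was -0.002, against -0.03 for all tested genes, with 6 called higher (26.5% of all tested genes) and 4 lower (26.5%). Of the 41 names 21 then lay below 0, as did 8265 of the 15909 tested genes, so the names were no longer lower as a list. With the array median in place of the 75th percentile it was -0.57, against -0.31 for all tested genes, with 1 called higher (18.4% of all) and 24 lower (36.5%). Normexp background correction gave 2 higher (17.9%) and 14 lower (21.8%). Without the filter on dim probes, where more genes entered the adjustment, 1 was called higher (11.0% of 27670 genes) and 2 lower (8.89%). With the slide as a block, 1 was called higher (22.2% of all) and 7 lower (23.8%). Within the slides, CFD diet minus control, the median was -0.52 on slide 1, -0.07 on slide 2 and -0.47 on slide 3. Over all tested genes it was -0.12, -0.03 and -0.15. In the CFD diet liver 37, 24 and 38 of the 41 names were lower (90.2%, 58.5% and 92.7%). Of all tested genes 56.5%, 51.9% and 57.1% were. CFD diet array 2 was the highest of the 3 CFD diet arrays for 37 of the 41 names, and for 45.0% of all tested genes. Without that array 27 names were called lower (31.1% of all). Without CFD diet array 1 it was 5 (21.5%) and without CFD diet array 3 it was 2 (18.1%). Leaving out control arrays 1, 2 and 3 in turn gave 3 (20.2%), 7 (21.7%) and 2 (17.4%). The hepatocyte marker sums above have the same order over the CFD diet arrays as the medians of the proteasome names. So do summed signals of 2 lists described below, anaphase-promoting complex (139, 183 and 149 on CFD diet arrays 1 to 3) and cullin-RING genes (75.5, 94.9 and 76.6). Those of the E1 enzymes do not (37.8, 38.8 and 40.7). The 75th percentile used for scaling was 618, 404 and 670 on CFD diet arrays 1 to 3 and 439, 365 and 402 on control arrays 1 to 3. The part of any of these in the shift was not tested.

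**Figure D2:**
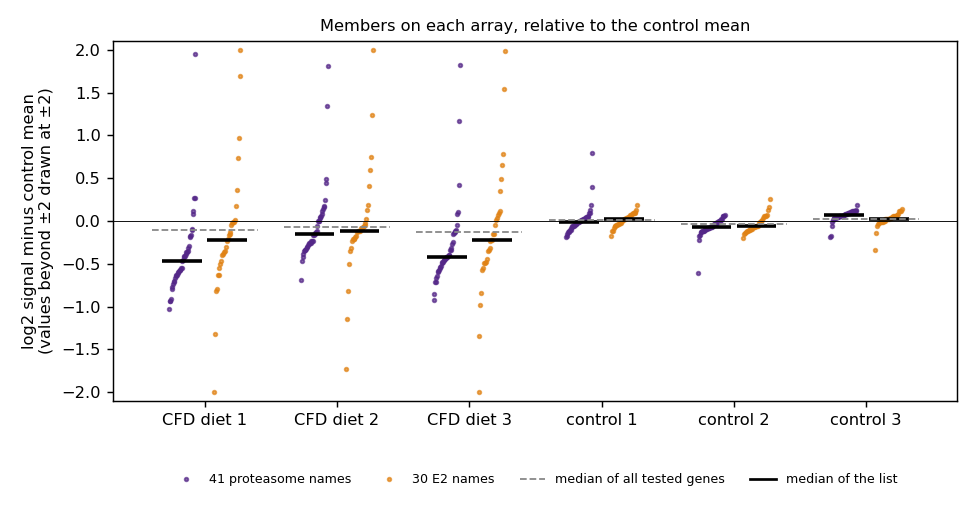
Log2 signal of each member on each array minus the mean of the 3 control arrays (y axis, log2 units, values beyond 2 drawn at the edge). Solid bars mark the median of the 41 proteasome names and of the 30 tested E2 names, and dashed lines the median of all tested genes. The proteasome medians were -0.46, -0.15 and -0.42 on CFD diet arrays 1 to 3 and between -0.07 and 0.07 on the control arrays.

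In the alpha ring of the core, 2 of 8 names were called lower, a share near the 27.4% of all tested genes. These were Psma3 (-0.51 ± 0.15, adjusted p = 0.0249) and Psma1 (-0.43 ± 0.14, adjusted p = 0.0434). Psma5 (-0.44 ± 0.16), Psma2 (-0.37 ± 0.17), Psma4 (-0.31 ± 0.14), Psma7 (-0.25 ± 0.16) and Psma6 (-0.17 ± 0.16) were not called. Psma3 and Psma1 were called in 7 and 8 of the 15 alternative settings. Psma8 encodes an alpha subunit that takes the place of Psma7 in the testis. Its signal was 0.431, 0.907 and 0.807 in the CFD diet livers and 0.620, 0.235 and 0.315 in the controls, overlapping between the groups, and it was not called (0.93 ± 0.42, adjusted p = 0.108).

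In the beta ring, 1 of 7 names was called, where 51.1% of all tested genes were. Psmb7, the catalytic subunit with trypsin-like activity, had signals of 11.4, 16.4 and 11.8 in the CFD diet livers and 21.7, 19.7 and 22.9 in the controls. Every CFD diet liver lay below every control, CFD diet liver 2 being the nearest (-0.71 ± 0.17, adjusted p = 0.0134), with differences of -0.93, -0.26 and -0.95 within slides 1 to 3. It was called in 12 of 15 alternatives, but not without CFD diet replicate 3, without control replicate 3, or without the filter on dim probes. The other catalytic subunits, Psmb5 with chymotrypsin-like activity (-0.01 ± 0.15, adjusted p = 0.952) and Psmb6 with caspase-like activity (-0.30 ± 0.19, adjusted p = 0.221), were not called, so these 3 members of the same ring gave different values. Differences between them were not tested. Psmb5, whose promoter is given above, came out at 0.41 after quantile normalization, where it was called higher. Psmb4 (-0.38 ± 0.19), Psmb1 (-0.29 ± 0.16), Psmb3 (-0.28 ± 0.21) and Psmb2 (-0.11 ± 0.12) were not called. On slide 2 all of the beta ring except Psmb7 was slightly higher in the CFD diet liver, with a ring median of 0.075.

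Among the 6 ATPases of the 19S cap, 3 were called lower and none higher, against 27.4% and 23.7% of all tested genes. Psmc1 fell by 0.54 ± 0.17 (adjusted p = 0.0341), Psmc6 by 0.50 ± 0.14 (adjusted p = 0.0253) and Psmc5 by 0.48 ± 0.14 (adjusted p = 0.0270). The other Psmc6 probe was above 0 and not called (0.20 ± 0.14), and with the mean of the probes Psmc6 came out at -0.15 and lost its call (adjusted p = 0.377). Psmc3 (-0.30 ± 0.13), Psmc4 (-0.11 ± 0.17) and Psmc2 (-0.06 ± 0.12) were not called. Psmc2 came out at 0.38 after quantile normalization, where it was called higher. All 6 ATPases form a single ring, and their values lay between -0.54 and -0.06.

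Of 14 non-ATPase names, 7 were called lower, where 27.4% of all tested genes were, and 1 higher, where 23.7% were. The lower ones were Psmd1 (-0.51 ± 0.13, adjusted p = 0.0149) and Psmd2 (-0.50 ± 0.15, adjusted p = 0.0288), the large scaffolds of the base, Psmd14 (-0.50 ± 0.13, adjusted p = 0.0175), the deubiquitinase of the lid, Psmd4 (-0.47 ± 0.14, adjusted p = 0.0307), a ubiquitin receptor, Psmd12 (-0.46 ± 0.14, adjusted p = 0.0299) and Psmd11 (-0.38 ± 0.12, adjusted p = 0.0321), lid subunits, and Psmd10 (-0.42 ± 0.13, adjusted p = 0.0361), which encodes gankyrin, an assembly chaperone. Psmd8, a lid subunit, went the other way. Its signal was 19.3, 22.5 and 21.4 in the CFD diet livers and 15.3, 15.7 and 17.1 in the controls. All CFD diet livers lay above all controls (0.39 ± 0.12, adjusted p = 0.0324), by 0.33, 0.52 and 0.33 within slides 1 to 3, and it was called in 7 of 15 alternatives. The lid subunits Psmd3 (-0.41 ± 0.16), Psmd6 (-0.33 ± 0.14), Psmd13 (-0.27 ± 0.12) and Psmd7 (0.12 ± 0.13) and the assembly chaperones Psmd5 (-0.03 ± 0.12) and Psmd9 (0.21 ± 0.14) were not called. Psmd11 and Psmd12 are near 0 after quantile normalization, at 0.07 and -0.01.

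The activators and the inhibitor held the proteasome member with the largest fall. Psme4 encodes PA200, a nuclear activator that caps the core without ATP. Its signal was 27.1, 32.2 and 27.3 in the CFD diet livers and 49.3, 51.5 and 54.7 in the controls, with a wide gap between the groups (-0.85 ± 0.13, adjusted p = 0.00237). Within slides 1 to 3 it fell by 0.86, 0.68 and 1.00. All 3 of its tested probes were called lower, and it was called in all 15 alternatives, down to a change of -0.42 after quantile normalization. The brightest Psme4 probe lies on chromosome 11 from 30832174 to 30832233 in build mm7.

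Psmf1, which encodes the inhibitor PI31, had signals of 1.37, 1.73 and 1.45 in the CFD diet livers and 2.17, 2.42 and 2.56 in the controls (-0.66 ± 0.14, adjusted p = 0.00843), but its probes disagreed, as described below. Psme1 and Psme2 encode the interferon-inducible PA28 activator. Psme1 had signals of 27.2, 44.1 and 41.8 in the CFD diet livers and 53.7, 55.5 and 57.9 in the controls. All CFD diet livers were below the controls, CFD diet liver 1 the farthest (-0.59 ± 0.20, adjusted p = 0.0444), and it was called in 8 of 15 alternatives. The brighter probe named Psme2b-ps had signals of 43.9, 70.5 and 71.1 in the CFD diet livers and 78.3, 87.5 and 86.9 in the controls, likewise without overlap, and was not called (-0.48 ± 0.21, adjusted p = 0.0967). A dimmer probe of the same name was called lower in a fit of all probes (-0.50 ± 0.15, adjusted p = 0.0267), and the mean of both was called as well (-0.49, adjusted p = 0.0482). The files place both probes on chromosome 14, where RefSeq has Psme1 and Psme2, while RefSeq has Psme2b on chromosome 11, so which of these near-identical copies they measured is uncertain. Psme3 encodes a nuclear activator of the same family. It had signals of 1.16, 1.09 and 1.19 in the CFD diet livers and 1.31, 1.22 and 1.38 in the controls, and was not called (-0.19 ± 0.11, adjusted p = 0.206).

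The largest change under a proteasome name belonged to a gene that is no proteasome subunit. Psmc3ip encodes HOP2, a protein of meiotic and homologous recombination that was named for binding Psmc3. Its signal was 0.308, 0.278 and 0.280 in the CFD diet livers and 0.104, 0.0682 and 0.0703 in the controls. The CFD diet livers were all well above the controls, control 1 being the highest of these (1.86 ± 0.19, adjusted p = 0.000563), and the differences within slides 1 to 3 were 1.56, 2.03 and 1.99. Both probes of the gene were called higher, and it was called in all 15 alternatives, with changes of 0.86 to 2.06. Without Psmc3ip, 1 of the 40 remaining proteasome names was called higher and the median was -0.37.

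The probes of a member did not always move together. Of the 16 proteasome names with more than 1 tested probe, 9 were called, and 5 of these had all tested probes called in the same direction: Psmc3ip, Psmc5, Psmd14, Psmd2 and Psme4. Psmd12, Psmd4 and Psmf1 had probes called in opposite directions in a fit of all probes. For Psmf1, the brightest probe (chromosome 2 from 151470474 to 151470533, mm7) gave -0.66 ± 0.14. A dimmer Psmf1 probe (chromosome 2 from 151457117 to 151457176) gave 1.13 ± 0.26, with signals of 0.229, 0.167 and 0.224 in the CFD diet livers and 0.122, 0.0650 and 0.102 in the controls, and a probe between them in brightness gave 0.19 ± 0.14. For Psmd4 a dim probe gave 0.53 ± 0.12 where the bright probe gave -0.47 ± 0.14. For Psmd12, 2 probes gave -0.57 ± 0.16 and -0.46 ± 0.14 and the dimmest of the 3 gave 0.48 ± 0.13. The files place this dimmest Psmd12 probe, from 107606858 to 107606917 on chromosome 11 (mm7), beside the brightest, from 107606690 to 107606749. With the mean of a gene's probes in place of the brightest, Psmf1 and Psmd4 came out at 0.22 and 0.03, Psmd12 came out at -0.18, and these 3 were not called. Of the 24 E2 names with more than 1 tested probe, 11 had probes on both sides of 0, and 1, Ube2v2, had probes called in opposite directions. Of the 7 called E2 names among them, 4 had all tested probes called in the same direction: Ube2g1, Ube2h, Ube2r2 and Ube2s. A dimmer probe was called for 11 E2 names whose brightest probe was not. How often the probes of other genes on the array disagreed was not counted, so these counts have no share to stand beside.

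**Figure D3:**
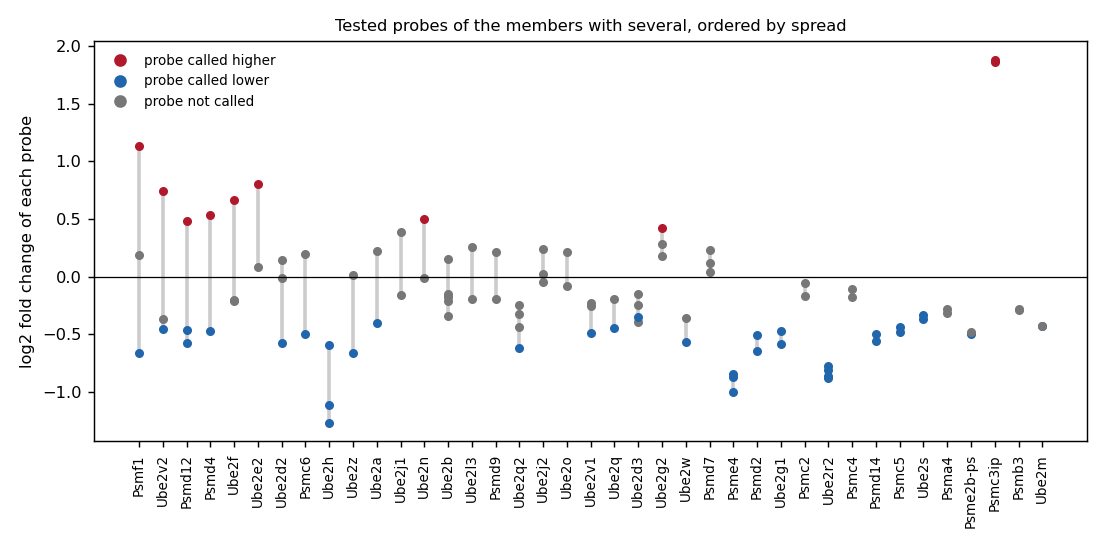
Log2 fold change, CFD diet over control, of each tested probe (y axis) of the members with more than 1, 1 E2 name left out, ordered from the widest to the narrowest spread between probes. Red and blue points are probes called higher and lower in a fit of all probes. The probes of Psmf1, Ube2v2, Psmd12 and Psmd4 were called in opposite directions, and those of Psmc3ip and Psme4 lie together.

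Among the E2 enzymes, Ube2c and Ube2t were higher and Ube2u, Ube2h and Ube2r2 lower in the CFD diet livers, and most others were not called. Of 30 tested, 5 were called higher, where 23.7% of all tested genes were, 7 lower, where 27.4% were, and 18 were not called. The median was -0.20, against -0.11 over all tested genes, and 21 lay below 0 (70.0%), against 56.2% of all tested genes. After quantile normalization the median was 0.005 and 15 of the 30 lay below 0, with 7 called higher (26.5% of all tested genes) and 5 lower (26.5%). Within slides 1 to 3 the median was -0.26, -0.04 and -0.24, against -0.12, -0.03 and -0.15 over all tested genes. With the slide as a block, 4 were called higher (22.2% of all) and 5 lower (23.8%). In the main setting, the brightest of the 4 bins by mean signal held 13 E2 names. Of these 2 (15.4%) were called lower, with a median of -0.21, against 38.4% and -0.29 for all genes in the bin. The next bin held 14, of which 4 (28.6%) were called lower, with a median of -0.28, against 29.7% and -0.14. Across both lists, 30 of 71 members were called, where 51.1% of all tested genes were, and 9 of them were called the same way in all 15 alternatives: 7 E2 enzymes (Ube2c, Ube2t, Ube2l6, Ube2u, Ube2h, Ube2r2 and Ube2e3) and 2 proteasome names (Psmc3ip and Psme4). The other 21 lost the call in at least 1 alternative. How many of all tested genes kept a call in all 15 was not counted, so these 9 have no share to stand beside.

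**Figure D4:**
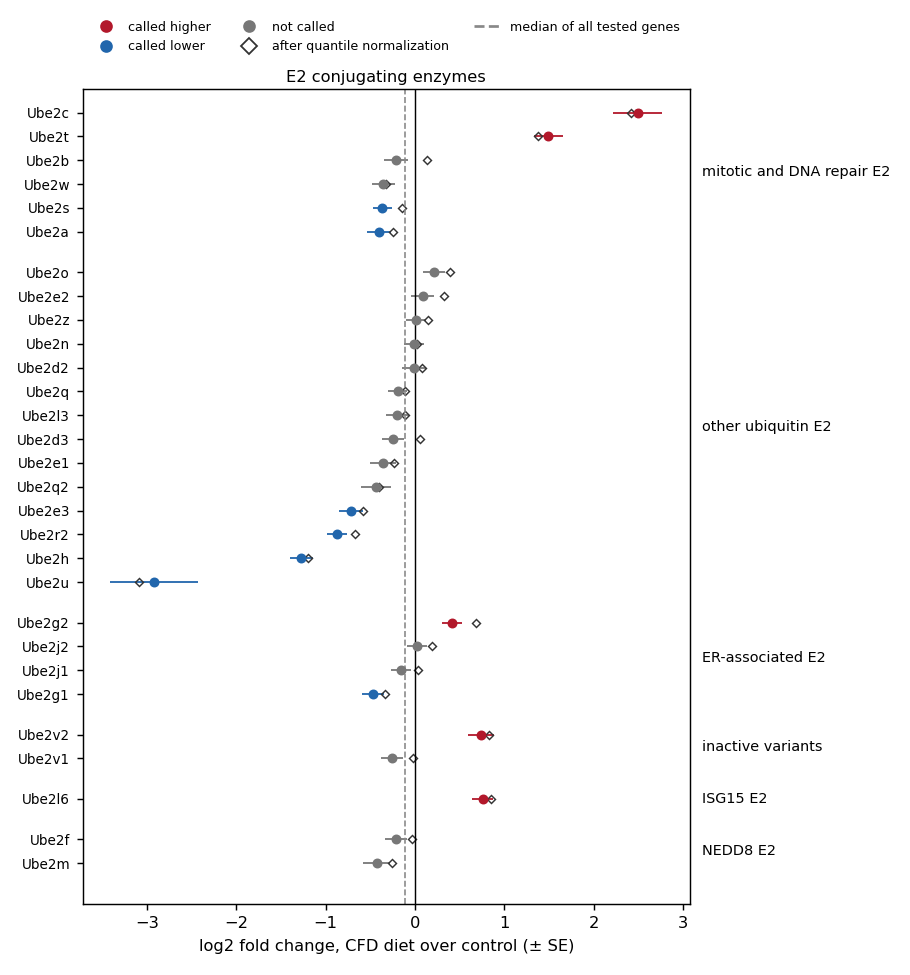
Log2 fold change, CFD diet over control, of 29 of the 30 tested E2 names by role, from the brightest tested probe of each (bars, standard error from limma, 3 arrays a group). Colours, diamonds and the dashed line are as in the plot of the proteasome names. Ube2c (2.50) and Ube2t (1.49) stand to the right and Ube2u (-2.92) and Ube2h (-1.27) to the left, and quantile normalization leaves them there.

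The E2 enzymes of mitosis and DNA repair included both large rises. Ube2c is the E2 that starts ubiquitin chains for the anaphase-promoting complex, the E3 ligase that drives cells out of mitosis. Its signal was 1.20, 0.914 and 0.617 in the CFD diet livers and 0.165, 0.186 and 0.123 in the controls. The lowest CFD diet liver was still above the highest control by a wide gap (2.50 ± 0.27, a 5.64-fold difference, adjusted p = 0.000778), with 2.86, 2.30 and 2.33 within slides 1 to 3. The Ube2c probe lies on chromosome 2 from 164513170 to 164513229 (mm7). Ube2t, the E2 of the Fanconi anaemia pathway of crosslink repair, had signals of 0.517, 0.377 and 0.465 in the CFD diet livers and 0.157, 0.179 and 0.145 in the controls. It was higher in every CFD diet liver (1.49 ± 0.16, 2.81-fold, adjusted p = 0.000727), by 1.72, 1.07 and 1.68 within the slides. All 8 proliferation markers tested, among them Mki67 and Top2a, were called higher as well, where 23.7% of all tested genes were. Their summed signal was 11.6, 7.93 and 5.90 in the CFD diet livers and 1.86 to 2.44 in the controls. Its order over the CFD diet livers is that of Ube2c and not that of Ube2t, which was lowest in CFD diet liver 2. The part of proliferation in the Ube2c and Ube2t values was not tested.

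Other E2 enzymes of this role fell or were not called. Ube2s lengthens the chains that Ube2c begins on the anaphase-promoting complex, and it was lower in the CFD diet livers (-0.37 ± 0.11, adjusted p = 0.0266). Its second probe gave -0.34 ± 0.11. The brighter Ube2s probe is placed by the files on chromosome 9 and the second on chromosome 7, where RefSeq has the gene. Ube2s was called in 7 of 15 alternatives, and came out at -0.14 after quantile normalization. Ube2a, which with Ube2b forms the RAD6 pair of DNA damage tolerance, was called lower (-0.40 ± 0.13, adjusted p = 0.0424) in the main setting and in 5 of 15 alternatives. Its second probe gave 0.22 ± 0.12 and was not called, and the mean of both was -0.09. Ube2b (-0.21 ± 0.13) and Ube2w (-0.36 ± 0.13), which attaches ubiquitin to the amino terminus of proteins, were not called. A second Ube2w probe was called lower (-0.57 ± 0.16), and the gene was called lower in 4 of 15 alternatives.

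Ube2u had the largest fall of all members. It is an E2 about which little is known. Its signal was 0.0297, 0.0830 and 0.0194 in the CFD diet livers and 0.280, 0.272 and 0.271 in the controls, with the controls close together and CFD diet liver 2 the nearest to them. The change was -2.92 ± 0.49 (adjusted p = 0.00373), or -3.23, -1.71 and -3.81 within slides 1 to 3. It ranged from -3.51 to -1.26 over the settings, the latter with normexp background correction, and was called in each. The CFD diet signals were near the limit of detection. The untested Ube2d1 probe had 0.0610, 0.0272 and 0.0480 in the same livers. The size of the Ube2u fall is therefore uncertain. The only Ube2u probe lies on chromosome 4 from 99866580 to 99866639 (mm7).

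Ube2h is the E2 of the CTLH ligase, whose yeast counterpart degrades enzymes of gluconeogenesis. Its signal was 1.32, 1.50 and 1.30 in the CFD diet livers and 2.93, 3.45 and 3.57 in the controls. No CFD diet liver reached the lowest control (-1.27 ± 0.13, 0.415-fold, adjusted p = 0.000657), and the differences within slides 1 to 3 were -1.15, -1.21 and -1.46. All 3 Ube2h probes were called lower, at -1.27, -1.12 and -0.60. Ube2r2, a Cdc34-type E2 of the cullin-RING ligases, had signals of 5.72, 5.72 and 5.11 in the CFD diet livers and 10.2, 10.2 and 10.0 in the controls. Both groups were tight (-0.88 ± 0.11, adjusted p = 0.00140), and all 4 Ube2r2 probes were called lower, between -0.88 and -0.77. Ube2e3, an E2 that is carried into the nucleus by an importin, had signals of 2.83, 3.46 and 2.72 in the CFD diet livers and 5.21, 4.69 and 4.80 in the controls (-0.71 ± 0.14, adjusted p = 0.00591). CFD diet liver 2 was again the nearest to the controls, with a difference of -0.44 on its slide against -0.88 on slide 1 and -0.82 on slide 3.

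**Figure D5:**
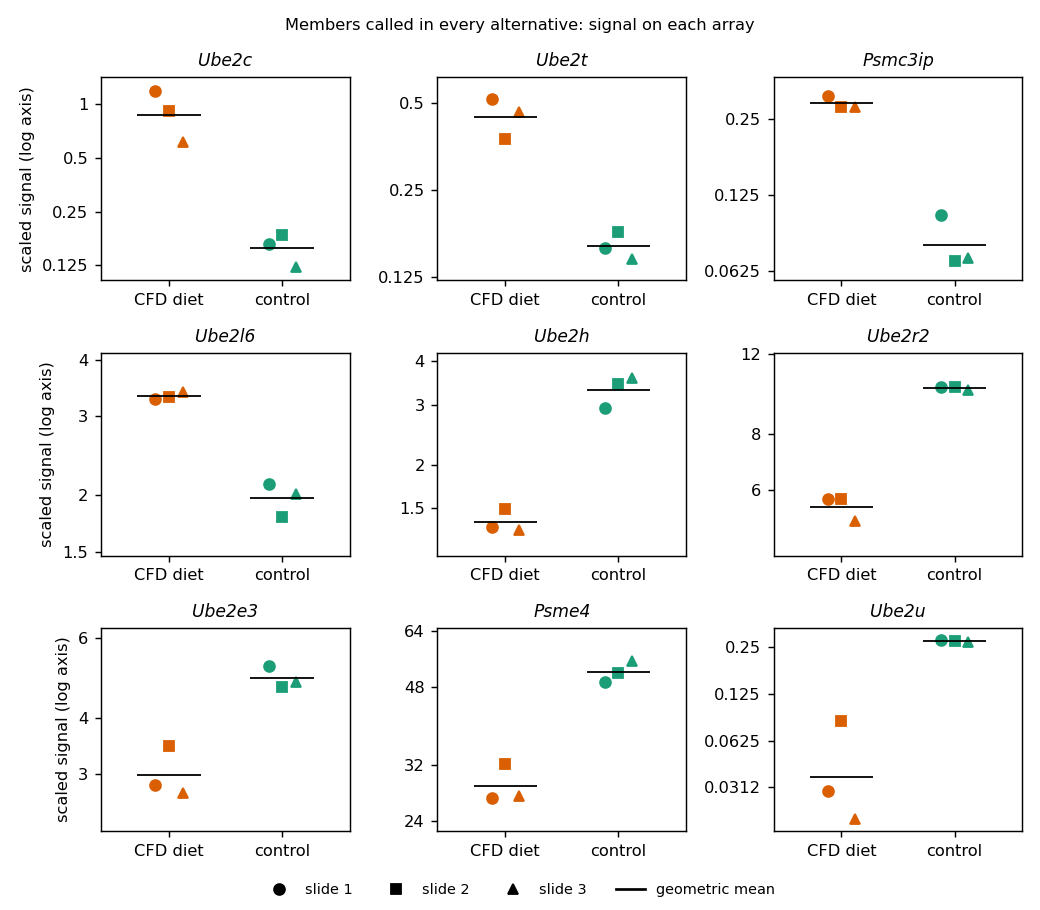
Signal scaled to the array's 75th percentile (log axis) of the 9 members called in all 15 alternatives, on each CFD diet array and each control array, with the geometric mean as a bar. Marker shapes give the slide, which held 1 array of each group. In none of the 9 panels do the groups overlap, but the members were chosen by their calls, so this is no further support. Of all tested genes, 28.3% had all CFD diet values above all control values and 34.6% below.

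Ube2l6 is the E2 for ISG15, an interferon-induced modifier. Its signal was 3.28, 3.31 and 3.40 in the CFD diet livers and 2.12, 1.79 and 2.01 in the controls, nearly the same in the 3 CFD diet livers (0.76 ± 0.12, adjusted p = 0.00281). Of the 8 interferon response genes, 2 were called higher, a share near the 23.7% of all tested genes. Their summed signal was 22.2, 27.2 and 55.3 in the CFD diet livers and 24.1 to 28.7 in the controls, so that CFD diet liver 3 stood apart for the list and not for Ube2l6. Isg15 itself had signals of 1.75, 2.32 and 4.25 in the CFD diet livers and 2.53, 1.73 and 2.21 in the controls, overlapping between the groups (0.28 ± 0.33, adjusted p = 0.512).

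Ube2v2 and Ube2v1 lack the catalytic cysteine and pair with Ube2n to build ubiquitin chains that act in signalling and repair. Ube2v2 had signals of 3.74, 2.88 and 3.01 in the CFD diet livers and 2.04, 1.79 and 1.91 in the controls (0.74 ± 0.14, adjusted p = 0.00607). This held for its brightest probe alone. A second Ube2v2 probe was called lower (-0.46 ± 0.12) and another was not called (-0.36 ± 0.15), and with the mean of the probes the gene came out at -0.03. Ube2v1 (-0.26 ± 0.12) and Ube2n (-0.01 ± 0.11) were not called. A dimmer Ube2v1 probe was called lower (-0.49 ± 0.12) and a dimmer Ube2n probe higher (0.50 ± 0.16).

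The E2 enzymes of endoplasmic reticulum-associated degradation, which removes misfolded secretory proteins, moved in both directions. Ube2g2, an E2 of the endoplasmic reticulum surface, had signals of 11.6, 12.0 and 12.7 in the CFD diet livers and 9.28, 8.45 and 9.38 in the controls. The groups did not overlap (0.42 ± 0.11, adjusted p = 0.0210), and the gene was called in 7 of 15 alternatives. Its other probes gave 0.28 ± 0.14 and 0.18 ± 0.15 and were not called. Ube2g1 fell by 0.47 ± 0.12 (adjusted p = 0.0163), with both probes called lower, in 12 of 15 alternatives. The membrane-anchored Ube2j1 (-0.16 ± 0.11) and Ube2j2 (0.03 ± 0.11) were not called.

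The E2 enzymes of NEDD8, a ubiquitin-like modifier, were not called by their brightest probes. Ube2m, which charges most cullins with NEDD8, had signals of 4.47, 5.96 and 5.08 in the CFD diet livers and 6.75, 6.37 and 7.64 in the controls. These did not overlap, but the adjusted p was 0.0513 (-0.43 ± 0.15). The other Ube2m probe was called lower (-0.43 ± 0.14, adjusted p = 0.0362), and the gene was called lower in 6 of 15 alternatives. Ube2f, the second NEDD8 E2, had signals of 4.46, 5.28 and 5.11 in the CFD diet livers and 5.88, 5.34 and 5.91 in the controls (-0.21 ± 0.12, adjusted p = 0.200), while a dimmer Ube2f probe was called higher (0.67 ± 0.15). The remaining ubiquitin E2 enzymes were not called by their brightest probes. Ube2q2 (-0.44 ± 0.17), Ube2e1 (-0.35 ± 0.15), Ube2d3 (-0.25 ± 0.12), Ube2l3 (-0.20 ± 0.13), Ube2q (-0.19 ± 0.11) and Ube2d2 (-0.01 ± 0.13) lay below 0, and Ube2z (0.01 ± 0.11), Ube2e2 (0.09 ± 0.12) and Ube2o (0.21 ± 0.12) above it. Among these, a dimmer probe was called higher for Ube2e2 (0.80 ± 0.17) and lower for Ube2z (-0.66 ± 0.14), Ube2q2 (-0.62 ± 0.16), Ube2d2 (-0.57 ± 0.14), Ube2q (-0.44 ± 0.13) and Ube2d3 (-0.35 ± 0.12).

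Genes around the proteasome gave the following counts, from lists compiled for this comparison. The counts here and in the 2 paragraphs that follow stand beside 23.7% of all tested genes called higher and 27.4% called lower, and lists this short allow no more than a description. The 3 immunosubunits, which replace the catalytic core subunits under interferon, were not called. Psmb8 had signals of 5.91, 8.52 and 13.3 in the CFD diet livers and 10.5, 12.2 and 11.5 in the controls, and Psmb9 and Psmb10 were likewise lowest in CFD diet liver 1 and highest in CFD diet liver 3. Of 4 tested assembly chaperones 1 was called lower, Psmg3 (-0.56 ± 0.17, adjusted p = 0.0320). Of 7 regulators of proteasome genes, 2 were called higher and 2 lower. NRF1 itself (Nfe2l1) was not called (0.08 ± 0.12, adjusted p = 0.598), whereas Ddi2, the protease that frees NRF1 from the endoplasmic reticulum, had signals of 4.39, 6.16 and 4.11 in the CFD diet livers and 10.9, 10.8 and 11.5 in the controls (-1.20 ± 0.18, adjusted p = 0.00225). Ngly1, which removes glycans from NRF1, was called lower (-0.44 ± 0.15, adjusted p = 0.0418), and Nfe2l2, which encodes NRF2, and Mafk, a partner of both factors, were called higher (0.45 ± 0.13, adjusted p = 0.0284, and 0.64 ± 0.20, adjusted p = 0.0348). Ddi2 was called in all 15 alternatives, Ngly1 in 6, Nfe2l2 in 9 and Mafk in 8. Of 6 targets of NRF2, 3 were called higher and 2 lower. Of 6 receptors and deubiquitinases of the particle 3 were called lower and none higher, among them Akirin2, which brings proteasomes into the nucleus (-0.54 ± 0.12, adjusted p = 0.00918), and Uchl5 (-0.49 ± 0.12, adjusted p = 0.0140).

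Around the E2 enzymes, 2 of 9 E1 enzymes were called higher and 2 lower. Uba1, the main ubiquitin E1, had signals of 5.01, 5.98 and 5.64 in the CFD diet livers and 8.53, 8.73 and 10.1 in the controls, a clear gap (-0.72 ± 0.13, adjusted p = 0.00508). Uba6, the other ubiquitin E1, was called higher (0.54 ± 0.19, adjusted p = 0.0457), as was Sae1, a subunit of the SUMO E1 (0.46 ± 0.13, adjusted p = 0.0225), and Atg7, the E1 of autophagy, was called lower (-1.19 ± 0.25, adjusted p = 0.00878). Uba1 and Atg7 were called in all 15 alternatives, Uba6 in 6 and Sae1 in 8. Of 14 subunits and activators of the anaphase-promoting complex, 4 were called higher and 2 lower. Its mitotic activator Cdc20 rose with Ube2c, with signals of 5.16, 3.83 and 2.10 in the CFD diet livers and 0.939, 0.973 and 0.668 in the controls (2.03 ± 0.34, adjusted p = 0.00367). Anapc10 was called higher (0.63 ± 0.13, adjusted p = 0.00733) and Anapc13 (-0.75 ± 0.20, adjusted p = 0.0211) and Anapc1 (-0.53 ± 0.11, adjusted p = 0.00718) lower.

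Of 11 cullin-RING genes 4 were called lower, against 27.4% of all tested genes, and none higher. Cul4a had signals of 3.55, 4.05 and 3.65 in the CFD diet livers and 7.92, 8.18 and 8.94 in the controls (-1.16 ± 0.12, adjusted p = 0.000625), and Skp1 was called lower (-0.55 ± 0.18, adjusted p = 0.0399). Of 8 tested ligases and partners of endoplasmic reticulum-associated degradation, which work with Ube2g2 and Ube2j1, 6 were called lower, against 27.4% of all tested genes, and 1 higher, against 23.7%. Herpud1 had signals of 12.3, 32.5 and 17.5 in the CFD diet livers and 76.4, 67.1 and 76.6 in the controls (-1.94 ± 0.34, adjusted p = 0.00415), Derl2 fell by 1.01 ± 0.22 (adjusted p = 0.0100), and Derl1 rose by 0.61 ± 0.13 (adjusted p = 0.00875). Of 10 shuttle and unfoldase genes 4 were called lower, among them Vcp (-0.71 ± 0.17, adjusted p = 0.0124), the ATPase that extracts ubiquitylated proteins, and its cofactor Ufd1 (-0.73 ± 0.19, adjusted p = 0.0200). Of 5 tested stress ligases 2 were called higher, Fbxo32, the F-box protein of muscle atrophy (2.17 ± 0.16, adjusted p = 0.000209), and Siah1a (1.01 ± 0.21, adjusted p = 0.00801), and Siah2 was called lower (-0.75 ± 0.13, adjusted p = 0.00392).

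Markers of other liver cell types moved with the diet as well, and their part in the values of the members was not tested. Counts of called markers stand beside 23.7% of all tested genes called higher and 27.4% called lower. Summed signals of the 7 stellate cell and fibroblast markers were 37.0 to 50.2 in the CFD diet livers and 11.3 to 13.2 in the controls, with 7 called higher. For the 5 cholangiocyte markers they were 88.5 to 122.8 in the CFD diet livers and 5.73 to 8.91 in the controls, with 5 called higher, and for the 6 macrophage markers 267.5 to 372.0 in the CFD diet livers and 92.2 to 124.1 in the controls, with 4 called higher and 1 lower. For the 4 endothelial markers they were 5.35 to 6.07 in the CFD diet livers and 9.90 to 10.3 in the controls, with 2 called lower. For the 6 hepatocyte markers they were 1080 to 1868 in the CFD diet livers and 1758 to 2195 in the controls, with 3 called lower and none higher. None of the 5 tested markers of T, B and NK cells was called. Sums over all 6 listed markers, the untested one included, were 0.548 to 0.856 in the CFD diet livers and 0.764 to 1.04 in the controls. Of 3 tested heat shock genes 1 was called higher and 1 lower. No tested marker was below background on all arrays of a group.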

How the data were processed

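Liver RNA of 3 CFD diet and 3 control samples was measured on 1-colour Agilent arrays. The deposited scanner files give spot intensity, background-subtracted by Agilent Feature Extraction 10.5.1.1 per the file headers (10.7 per the submitters' processing notes). The series' deposited value table holds the authors' intensity values on a linear scale, with a 75th percentile near 1000 on each array. By rank it numbers replicates differently within each group (the column named CFD diet 1 held the values scanned as CFD diet 2, and so on), so it served only as an alternative, and which numbering is intended stays unknown. No column was left unmapped (0 columns).

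Each array's 75th percentile over spots that are not controls was subtracted from the log2 intensity, control and outlier spots left out. A probe was tested if either group had it well above background on each of its 3 arrays (23482 probes, 15909 genes, a gene by its brightest probe). Groups came from the labels. They were compared by lmFit and eBayes of limma 3.58.1 (R 4.3.3), adjusted by Benjamini and Hochberg over all tested genes, and the fit was tested on simulated data. The number of arrays limits the precision. Same-numbered CFD diet and control arrays share a slide and a scan, and their deviations from the group means correlated at 0.17, -0.07 and -0.01, so the numbers were not taken to pair the livers, and the slide was tried as a block. Probe coordinates are in build mm7 per the file headers. Members keep the names in the files (Ube2q and Ube2d2 are now Ube2q1 and Ube2d2a), and other names were updated through RefSeq (GRCm38.p6). The files placed the chosen probe on the gene's RefSeq chromosome for 69 of 71 members, all except Ube2s and Psme2b-ps.

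The members, the gene lists and the alternatives were chosen with earlier results of these data known. Values on all arrays are printed for the largest called rises (up to 6) and falls (4) of each list without overlap between the groups, and for the Psme, Psmf, NEDD8 and ISG15 members; for the other lists, the 2 largest called rises and falls are named. The values of 1 E2 name and of 1 related list are not reported here. The 15 alternatives were normexp background correction with an offset of 50, array median scaling, quantile normalization, no filter and a stricter filter on dim probes, the slide block, limma with trend and robust options, the mean of a gene's probes, the deposited value table and leaving out each array.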

Additional observations from a re-analysis of the deposited data

How the results depend on the processing

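The deposited value table, limma with trend and robust options and the stricter filter on dim probes kept all 30 member calls, normexp background correction 27, array median scaling 28, the mean of a gene's probes 23, the slide as replicate block 17, quantile normalization 16 and no filter on dim probes 11. Proteasome names called higher numbered 1 with array median scaling, without the filter or with the replicate block, and 6 after quantile normalization. Those called lower numbered 4 after quantile normalization, 2 without the filter and 7 with the replicate block. E2 enzymes called lower numbered 12 with array median scaling and 4 without the filter. The median of the proteasome names after quantile normalization was -0.002, and that of the E2 enzymes 0.005, against -0.41 with array median scaling. Over all genes, 2460 were called lower without the filter. Leaving out 1 array at a time gave 3113 to 3930 genes called higher and 2770 to 4954 lower, 1 to 2 proteasome names higher and 2 to 27 lower (median -0.49 to -0.26), and 4 to 5 E2 enzymes higher and 4 to 11 lower (median -0.23 to -0.19). Among results called in either setting, the direction turned after quantile normalization for Psmb5 (0.41), Psmc2 (0.38) and Psmd11 (0.07), and with the mean of a gene's probes for Psmd4 (0.032), Psmf1 (0.22), Ube2v2 (-0.027) and Anapc1 (0.36). Counting members called in neither, 15 of the 41 proteasome names and 6 of the 30 E2 names changed sign after quantile normalization, all to above 0, and 2 and 6 did with the mean of the probes. An array left out leaves fewer samples. The cause of the other changes was not tested.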
